A study of Mus musculus with 20 samples.

Results

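The nuclear genes for the mitochondrial respiratory chain and ATP synthase were followed in liver RNA of male mice aged 8 weeks. They are the 97 of 20914 genes in the count table whose symbol begins with Nduf, Uqcr or Atp5, or with Cox and a digit of 4 to 8, together with Sdha, Sdhb, Sdhc, Sdhd, Cyc1 and Cycs. The 3 matching pseudogene symbols that carry -ps were left out. Of the 97 genes, 40 encode complex I subunits, 4 complex II, 9 complex III, 18 complex IV and 17 ATP synthase, 1 encodes cytochrome c, and 8 are complex I assembly factors (symbols with Ndufaf), which match by symbol but are not subunits. Ndufa4 and Ndufa4l2 were placed with complex IV, since Ndufa4 is a subunit of cytochrome c oxidase.

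The 10 knockout (KO) mice had the genotype HSD17B12lox/lox;Alb-CreCre/WT and the 10 wild-type (WT) mice HSD17B12lox/lox;Alb-CreWT/WT, so that all mice of strain LiB12cKO carried both floxed alleles and the KO mice alone carried Cre. Cre stood under the albumin promoter, a driver active mainly in hepatocytes, and effects of Cre and of the loss of Hsd17b12 cannot be told apart. Hsd17b12 encodes a 3-ketoacyl-CoA reductase of fatty acid elongation. Total RNA came from the left lateral lobe, 1 library per mouse, with 16693195 to 24895938 fragments assigned to genes in KO mice and 19676907 to 29124124 in WT mice. Hsd17b12 had 44.2, 47.9 and 51.3 CPM in KO livers, against 123, 154 and 177 CPM in WT livers (lowest, median and highest mouse), with no overlap (log2 fold change -1.66, SE 0.0644, adjusted p = 3.85e-14). CPM are counts brought to a common library size with TMM factors.

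The respiratory chain passes electrons from NADH (complex I) and succinate (complex II) through ubiquinone, complex III and cytochrome c to oxygen at complex IV, and pumps protons out of the mitochondrial matrix. ATP synthase, often called complex V, uses the returning protons to make ATP. Complexes I, III, IV and V are built from subunits of both nuclear and mitochondrial DNA, while all complex II subunits are nuclear, and the hepatocyte is among the cell types richest in mitochondria.

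Nuclear respiratory chain and ATP synthase genes fell as a broad group (median log2 fold change -0.43) when libraries were scaled by TMM factors. These factors (trimmed mean of M values) set the bulk of genes level between libraries. Without them the group kept about the same share of the fragments assigned to genes. Of 91 members that passed the filter on low counts, 78 were lower in KO livers and 1 was higher with TMM factors (edgeR quasi-likelihood test, Benjamini-Hochberg adjusted p under 0.05 over 13670 genes). The median log2 fold change of KO over WT was -0.43 over the members and -0.025 over all genes tested. Lower calls made up 31% of all genes tested and higher calls 28.2%. In 44 of the 91 members every KO mouse lay below every WT mouse, against 6.47% of all genes tested, and in 0 of them above every WT mouse, against 7.1%. The p-values measure the spread between mice, and in bulk tissue fewer cells of a type and less RNA per cell cannot be told apart.

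Scaling by library size alone, which expresses a gene as its share of assigned fragments, turned the direction. With it 27 members were higher, 12 lower and 52 not called, while 68.4% of all genes tested were higher and 6.71% lower. The member median was then 0.037 and that of all genes 0.44, a shift of 0.47 for all genes and 0.46 for the members. A factor per library moves all genes nearly alike, so the place of the members among all genes could hardly change between the scalings. Below the member median lay 17.0% of all genes with TMM factors and 16.8% with library size. No member then had every KO mouse below every WT mouse (1.04% of all genes did), and 3, among them Ndufa10 and Ndufaf7, had every KO mouse above every WT mouse (24.9% of all genes did). Neither scaling measures RNA per cell.

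The spread among the members was narrow. The interquartile range of their log2 fold changes was 0.22, against 0.64 for all genes tested, both with TMM factors. All genes tested were not matched to the members in level, and the part of level in this difference was not tested. Of the 91, 48 have a gene length under 700 bases, where the median log2 fold change was -0.42 for members and -0.25 for all 591 tested genes of that length. In the 16 members of 1500 bases and over it was -0.36, against 0.011 for all genes of that length.

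**Figure D1:**
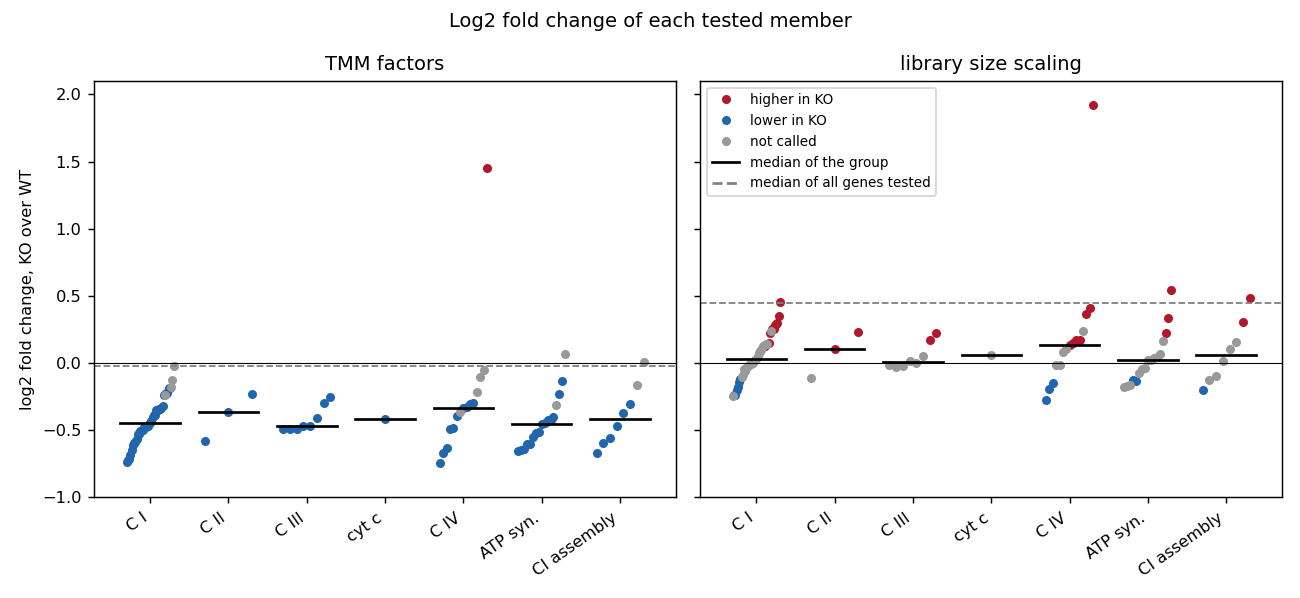
Log2 fold change of KO over WT for each of the 91 tested members, by complex, with TMM factors (left) and library size scaling (right); each point is a gene, coloured by its call, black bars are group medians and the dashed line is the median of all genes tested. Nearly all points lie below that line on the left. The right side repeats this, since a change of scaling moves line and points nearly alike. Relative to 0 the points move by 0.46 between the sides.

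As a share of all assigned fragments, the 97 genes took 1.12% to 1.26% in KO mice (mean 1.18% ± 0.048, SD, n = 10) and 1.06% to 1.23% in WT mice (1.13% ± 0.052, n = 10), so that the genotypes overlapped. In CPM their sum was 9035 to 11124 in KO mice and 12521 to 14004 in WT mice, without overlap. The TMM factors that separate these measures were 1.05 to 1.24 in KO mice and 0.787 to 0.974 in WT mice. The 20 most abundant genes of each library took 20.5% to 23.2% of assigned fragments in KO mice and 24.1% to 26.9% in WT mice. Fragments set aside as ambiguous between genes made up 3.38% to 6.26% in KO mice (median 3.58%) and 3.50% to 8.36% in WT mice (median 6.47%). Fragments that aligned to several places (multi-mapping) made up 2.09% to 8.46% in KO mice (median 2.83%) and 3.38% to 14.1% in WT mice (median 10.8%). KO_391, with the largest multi-mapping share of the KO mice, had the lowest KO TMM factor (1.05). WT_441, with the smallest share of the WT mice, had the highest WT factor (0.974). The part of these differences in the result was not tested.

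**Figure D2:**
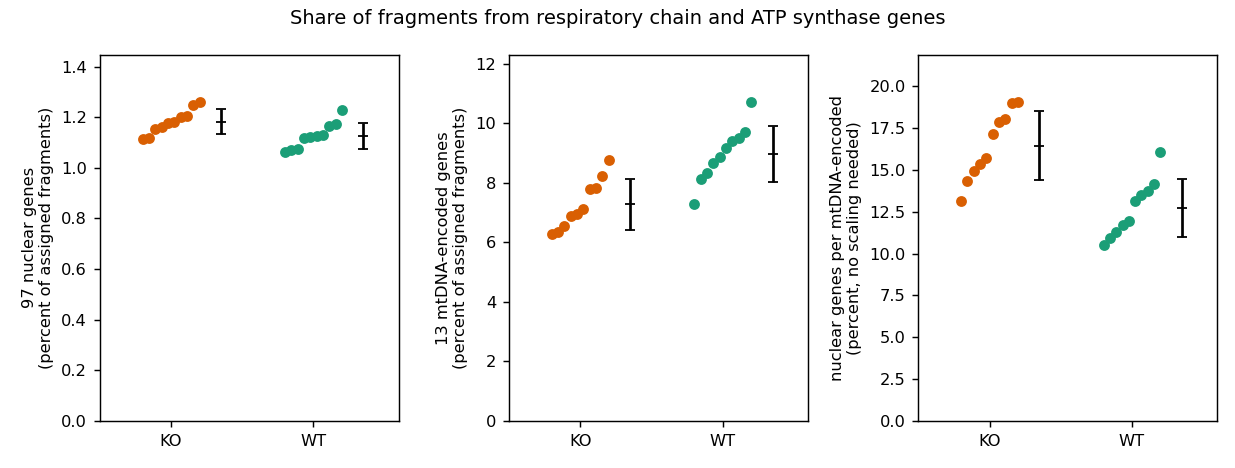
Percent of assigned fragments from the 97 nuclear genes (left) and from the 13 protein genes of mitochondrial DNA (middle), and nuclear fragments per 100 mitochondrial ones (right); points are mice in order of value, bars mean and SD of 10 mice. The nuclear share overlaps between KO and WT, the mitochondrial share is mostly lower in KO and their ratio mostly higher in KO.

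Markers of other cells moved with genotype. With TMM factors all 10 hepatocyte markers were lower in KO livers (median log2 fold change -0.79; 6 of 10 lower under library size scaling), and their summed level was 51288 to 64304 CPM in KO mice and 80996 to 118271 CPM in WT mice. Of 9 Kupffer cell and macrophage markers 8 were higher, with sums of 256 to 506 CPM in KO mice and 122 to 254 CPM in WT mice. Of 5 stellate and fibroblast markers 4 were higher, with sums of 131 to 313 CPM in KO mice and 73.4 to 171 CPM in WT mice. All 3 proliferation markers were higher, of 5 endothelial markers 2 were, and of 5 cholangiocyte markers 2 were higher and 1 lower. Of 3 tested red cell markers 1 was lower (Alas2, log2 fold change -2.31), and 0 of 3 B cell and 0 of 2 neutrophil markers were called. T and NK cell and brown fat markers were too low to test. Striated muscle markers summed to 0.0390 to 1.02 CPM in KO mice and 0 to 557 CPM in WT mice, were high in WT_389 and WT_441 and did not pass the filter. The part of these cells in the member levels was not tested.

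Motifs of factors known to drive mitochondrial genes were looked for in the member promoters, since the members moved together. NRF1, the GABP proteins (ETS family), YY1 and the estrogen-related receptors (ERR) are such factors. RefSeq windows of build GRCm38.p6, 250 bases before to 50 bases after a gene's start, were given for 77 of the 97 members, in 82 windows. The NRF1 letters GCGCATGCG stood in 11 windows (13.4%) on either strand, against 1.75% of all 32851 windows. All windows cover 27025 genes, whether tested in these livers or not, and no share was taken over tested genes alone. The ETS letters CCGGAAG stood in 19 (23.2%, against 8.86%), the YY1 letters AAGATGGCG in 8 (9.76%, against 1.40%) and the ERR letters TCAAGGTCA in 2 (2.44%, against 0.423%). Among tested members the median log2 fold change with TMM factors was -0.55 with the ETS letters (17 genes) and -0.40 without them (57 genes), and -0.41 with the NRF1 letters (10 genes) and -0.44 without them (64 genes). It was -0.34 with the YY1 letters (8 genes) and -0.44 without them (66 genes), and none of these differences was tested. The windows below show 1 member of each complex and cytochrome c that holds such letters, 5′ to 3′, with the matched letters of either strand in capitals:
Ndufs3 (chr2:90904672-90904971, - strand): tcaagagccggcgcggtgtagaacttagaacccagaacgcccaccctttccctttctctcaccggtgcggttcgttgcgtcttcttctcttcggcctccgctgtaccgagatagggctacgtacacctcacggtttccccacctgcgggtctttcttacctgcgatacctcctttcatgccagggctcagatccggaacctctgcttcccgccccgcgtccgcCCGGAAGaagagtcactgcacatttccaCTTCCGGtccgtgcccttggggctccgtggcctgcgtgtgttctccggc
Sdhb (chr4:140961021-140961320, + strand): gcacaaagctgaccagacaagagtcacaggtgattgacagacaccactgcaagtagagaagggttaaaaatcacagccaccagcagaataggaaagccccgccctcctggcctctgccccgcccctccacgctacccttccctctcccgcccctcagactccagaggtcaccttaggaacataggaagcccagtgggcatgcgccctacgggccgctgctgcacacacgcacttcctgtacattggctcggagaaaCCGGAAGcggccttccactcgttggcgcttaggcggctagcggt
Uqcrh (chr4:116075021-116075320, - strand): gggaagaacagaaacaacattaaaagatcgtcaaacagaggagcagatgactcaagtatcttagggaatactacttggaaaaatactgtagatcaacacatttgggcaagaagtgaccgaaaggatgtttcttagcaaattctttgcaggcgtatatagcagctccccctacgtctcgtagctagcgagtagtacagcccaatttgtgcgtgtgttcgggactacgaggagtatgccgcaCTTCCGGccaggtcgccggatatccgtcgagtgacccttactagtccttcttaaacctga
Cycs (chr6:50566520-50566819, - strand): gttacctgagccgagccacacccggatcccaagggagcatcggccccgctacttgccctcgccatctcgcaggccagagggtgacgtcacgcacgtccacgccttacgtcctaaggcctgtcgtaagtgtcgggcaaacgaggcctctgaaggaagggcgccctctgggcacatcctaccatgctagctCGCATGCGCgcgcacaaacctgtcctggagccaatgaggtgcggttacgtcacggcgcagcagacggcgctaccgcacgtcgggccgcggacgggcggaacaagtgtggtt
Cox6a1 (chr5:115348909-115349208, - strand): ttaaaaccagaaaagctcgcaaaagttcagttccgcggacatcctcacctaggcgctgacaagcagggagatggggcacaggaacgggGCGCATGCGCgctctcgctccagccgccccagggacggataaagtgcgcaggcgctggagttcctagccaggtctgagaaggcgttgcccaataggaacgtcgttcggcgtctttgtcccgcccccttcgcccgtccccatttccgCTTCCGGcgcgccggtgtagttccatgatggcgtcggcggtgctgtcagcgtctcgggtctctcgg
Atp5j (chr16:84834927-84835226, - strand): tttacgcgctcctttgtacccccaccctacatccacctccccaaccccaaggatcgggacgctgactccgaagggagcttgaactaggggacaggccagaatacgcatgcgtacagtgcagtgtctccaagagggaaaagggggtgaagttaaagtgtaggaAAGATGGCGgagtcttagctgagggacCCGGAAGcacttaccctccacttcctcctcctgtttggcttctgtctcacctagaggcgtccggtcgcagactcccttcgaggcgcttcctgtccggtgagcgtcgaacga
Counted from the start site, Ndufs3 holds ETS letters beginning at -27 and at 2, Sdhb at 7 and Uqcrh at -10. Cycs holds NRF1 letters at -61, and Cox6a1 an NRF1 palindrome, matched on both strands, at -162 and ETS letters at -16. Atp5j holds YY1 letters at -88 and ETS letters at -61, and its exons overlap those of Gabpa, the gene for the DNA-binding GABP subunit on the opposite strand. Such matches are letters in a window and not measured binding.

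Complex I, the NADH dehydrogenase, fell broadly with TMM factors: 35 of 39 tested members were lower, 0 higher and 4 not called, with a median log2 fold change of -0.44, while under library size scaling 11 were higher and 6 lower and the median was 0.033. All 7 core subunits, which carry the flavin and iron-sulfur centres, were lower with TMM factors (median -0.48). In the NADH-oxidising module Ndufv1, which binds the flavin, had 111, 129 and 154 CPM in KO livers, against 169, 182 and 195 CPM in WT livers (log2 fold change -0.48, SE 0.0540). Ndufv2, an iron-sulfur subunit of the same module, had 72.9, 79.9 and 92.9 CPM in KO livers, against 104, 116 and 131 CPM in WT livers (log2 fold change -0.53, SE 0.0504, adjusted p = 1.35e-08). Both genes had every KO mouse below every WT mouse, while Ndufs1, the third core subunit of the module, overlapped with a log2 fold change of -0.24.

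In the quinone-reducing module the core subunit that changed most was Ndufs3. Ndufs3 (mm10 chromosome 2, 90894636 to 90904721, 7 exon blocks) had 61.5, 69.0 and 80.7 CPM in KO livers, against 91.8, 105 and 121 CPM in WT livers, without overlap (log2 fold change -0.59, SE 0.0568, adjusted p = 1.39e-08). Ndufs3 stayed lower under library size scaling (log2 fold change -0.12, adjusted p = 0.0235). Ndufs7 and Ndufs8, iron-sulfur subunits of the same module, had log2 fold changes of -0.48 and -0.50 with TMM factors and were not called under library size scaling.

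The accessory subunits with Ndufb symbols, most of them in the membrane arm of complex I, were lower in 12 of 12 genes with TMM factors (median -0.50). That count includes Ndufb4, Ndufb4b and Ndufb4c, close copies that can share fragments and so may not be separate results. Under library size scaling 4 of the 12 were lower, namely Ndufb3, Ndufb9, Ndufb10 and Ndufb11, and 0 were higher. Ndufb11 (mm10 chromosome X, 20615326 to 20617564) had 66.3, 83.4 and 96.1 CPM in KO livers, against 125, 135 and 152 CPM in WT livers (log2 fold change -0.71, SE 0.0611, adjusted p = 2.90e-09). Ndufb9 had 109.5, 139 and 155 CPM in KO livers, against 198, 215 and 235 CPM in WT livers (log2 fold change -0.65, SE 0.0581, adjusted p = 5.64e-09). Ndufb10 had 72.5, 93.4 and 98.2 CPM in KO livers, against 126, 138 and 155 CPM in WT livers (log2 fold change -0.61, SE 0.0560, adjusted p = 7.61e-09). None of these 3 genes had a KO mouse within the WT range, and Ndufb11 also fell under library size scaling by 0.24 (adjusted p = 5.79e-04). Ndufb3 had 34.9, 40.6 and 49.8 CPM in KO livers, against 44.5, 68.5 and 85.2 CPM in WT livers and overlapped, with a log2 fold change of -0.72 (adjusted p = 1.61e-06).

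Accessory subunits with Ndufa symbols were mixed, with 9 of 13 lower with TMM factors (median -0.35) and 6 higher and 0 lower under library size scaling. Ndufa9, at the joint of the matrix and membrane arms, had 96.7, 106 and 120.4 CPM in KO livers, against 125, 138 and 153 CPM in WT livers and was called in opposite directions by the 2 scalings (-0.35 and 0.12). Ndufa10, an accessory subunit related to deoxynucleoside kinases, had 139, 170.0 and 186 CPM in KO livers, against 151, 174 and 190.5 CPM in WT livers. Its genotypes overlapped throughout with TMM factors (log2 fold change -0.020, SE 0.0565, adjusted p = 0.773). Under library size scaling Ndufa10 lay 0.45 higher (adjusted p = 4.29e-08), where the median of all genes tested was 0.44. Ndufab1, the mitochondrial acyl carrier protein, Ndufa8 and Ndufa12 were not called with TMM factors either (-0.12, -0.18 and -0.24). Different unnamed genes on the opposite strand overlap 80.2% of the Ndufa8 exons, 55.1% of those of Ndufa12 and 60.9% of those of Ndufa6. Ndufa6 was lower with TMM factors (-0.34, adjusted p = 1.06e-05), and the part of the overlaps in these values was not tested. Fragments that fall on 2 genes were set aside where strand was not used.

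Of the remaining complex I genes, Ndufv3 had 40.6, 49.2 and 56.4 CPM in KO livers, against 62.4, 78.7 and 96.3 CPM in WT livers without overlap (log2 fold change -0.68) and was also lower under library size scaling (-0.20, adjusted p = 0.0101). Ndufs4, an accessory subunit whose loss causes Leigh syndrome in humans, had -0.18 with TMM factors and 0.29 with library size, past the threshold in opposite directions. Ndufc2 had -0.32 and 0.15, and Ndufa6 -0.34 and 0.13, called in the same opposed way. The lowest fitted log2 fold change of the complex was that of Ndufs6b (-0.73, SE 0.214), at 0.494, 0.714 and 1.05 CPM in KO livers and 0.645, 1.17 and 2.33 CPM in WT livers. Ndufs6 and Ndufs6b, Ndufa11 and Ndufa11b, Ndufb4, Ndufb4b and Ndufb4c, and Ndufs5 and its pseudogene are close copies that can share fragments, so their values are uncertain. Ndufa11b had 18 counts over all KO mice and 26 over all WT mice and was not tested.

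Of the complex I assembly factors 6 of 8 were lower with TMM factors (median -0.42), and 2 were higher and 1 lower under library size scaling (median 0.061). Ndufaf1, a chaperone of the membrane arm, had 14.9, 20.4 and 24.0 CPM in KO livers, against 26.8, 31.7 and 36.0 CPM in WT livers (log2 fold change -0.67, SE 0.0742, adjusted p = 1.14e-07). It was the assembly factor lower under both scalings (-0.20 with library size). Ndufaf6 and Ndufaf4 had -0.60 and -0.56, and Ndufaf8 -0.31, all lower with TMM factors. Ndufaf7, a mitochondrial methyltransferase, had 12.2, 14.0 and 14.98 CPM in KO livers, against 11.95, 13.8 and 15.5 CPM in WT livers and was not called (log2 fold change 0.011, SE 0.0602, adjusted p = 0.884). Its log2 fold change was 0.48 under library size scaling (adjusted p = 1.54e-07), where the median of all genes tested was 0.44.

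Complex II, the succinate dehydrogenase shared with the citric acid cycle, had 3 tested members, all lower with TMM factors (median -0.36), of which 2 were higher under library size scaling (median 0.11). Sdhb, the iron-sulfur subunit, had 124, 154 and 196 CPM in KO livers, against 210.4, 242 and 265 CPM in WT livers without overlap (log2 fold change -0.58, SE 0.0712, adjusted p = 4.78e-07). Sdhc, a membrane anchor, had 142, 152 and 172 CPM in KO livers, against 186, 204 and 212 CPM in WT livers without overlap (log2 fold change -0.36). Sdha, the flavoprotein, had 332, 378 and 499 CPM in KO livers, against 330.1, 450.2 and 571 CPM in WT livers and overlapped (log2 fold change -0.23, SE 0.0863, adjusted p = 0.0253). The Sdha call was lost without any one of KO_372, KO_404, KO_414, KO_416, KO_425, KO_434, KO_435 or WT_427 (adjusted p between 0.0506 and 0.0774). Under library size scaling Sdha and Sdhc were higher (log2 fold changes 0.23 and 0.11) and Sdhb was not called (-0.11, adjusted p = 0.0770). Sdhd, the other anchor, had 60 counts over the KO mice and 76 over the WT mice and was not tested, and an unnamed gene on the opposite strand overlaps 90.8% of its exons.

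Complex III, the cytochrome bc1 complex, fell in 8 of 8 tested members with TMM factors (median -0.46), and under library size scaling 2 were higher, 0 lower and 6 not called (median 0.0081). Cyc1, the cytochrome c1 subunit, had 148, 172 and 215 CPM in KO livers, against 221, 241 and 260.3 CPM in WT livers (log2 fold change -0.46, SE 0.0555, adjusted p = 3.39e-07). Uqcrfs1, the Rieske iron-sulfur protein, had 148, 179 and 223 CPM in KO livers, against 240.2, 249.95 and 273 CPM in WT livers (log2 fold change -0.49, SE 0.0602, adjusted p = 4.77e-07). Uqcrh, the hinge protein, had 105, 113 and 136 CPM in KO livers, against 150.0, 163 and 177 CPM in WT livers (log2 fold change -0.49, SE 0.0563, adjusted p = 1.93e-07). These 3 genes and the core subunit Uqcrc1 (log2 fold change -0.41) had every KO mouse below every WT mouse, and Uqcrc1, Cyc1, Uqcrfs1 and Uqcrh lay between -0.026 and 0.057 under library size scaling.

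The smallest changes of complex III with TMM factors were those of Uqcr10 (-0.25) and of Uqcrc2, the other core subunit (-0.30), and these were the members that were higher under library size scaling (0.22 and 0.17). Uqcrq was the most abundant complex III gene per length, at 536 ± 53.8 RPKM in KO livers and 750.4 ± 120.2 RPKM in WT livers (reads scaled by transcript length and depth, mean ± SD, n = 10 each), and had a log2 fold change of -0.49. Uqcr11 had 2 counts over each genotype, with 95.4% of its exons under an opposite-strand gene, Gm19876, and was not tested. Cycs, the mobile cytochrome c, had 62.2, 66.4 and 84.1 CPM in KO livers, against 71.6, 94.8 and 107 CPM in WT livers with overlap (log2 fold change -0.42, SE 0.0788, adjusted p = 1.04e-04), and 0.062 under library size scaling (adjusted p = 0.398).

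**Figure D3:**
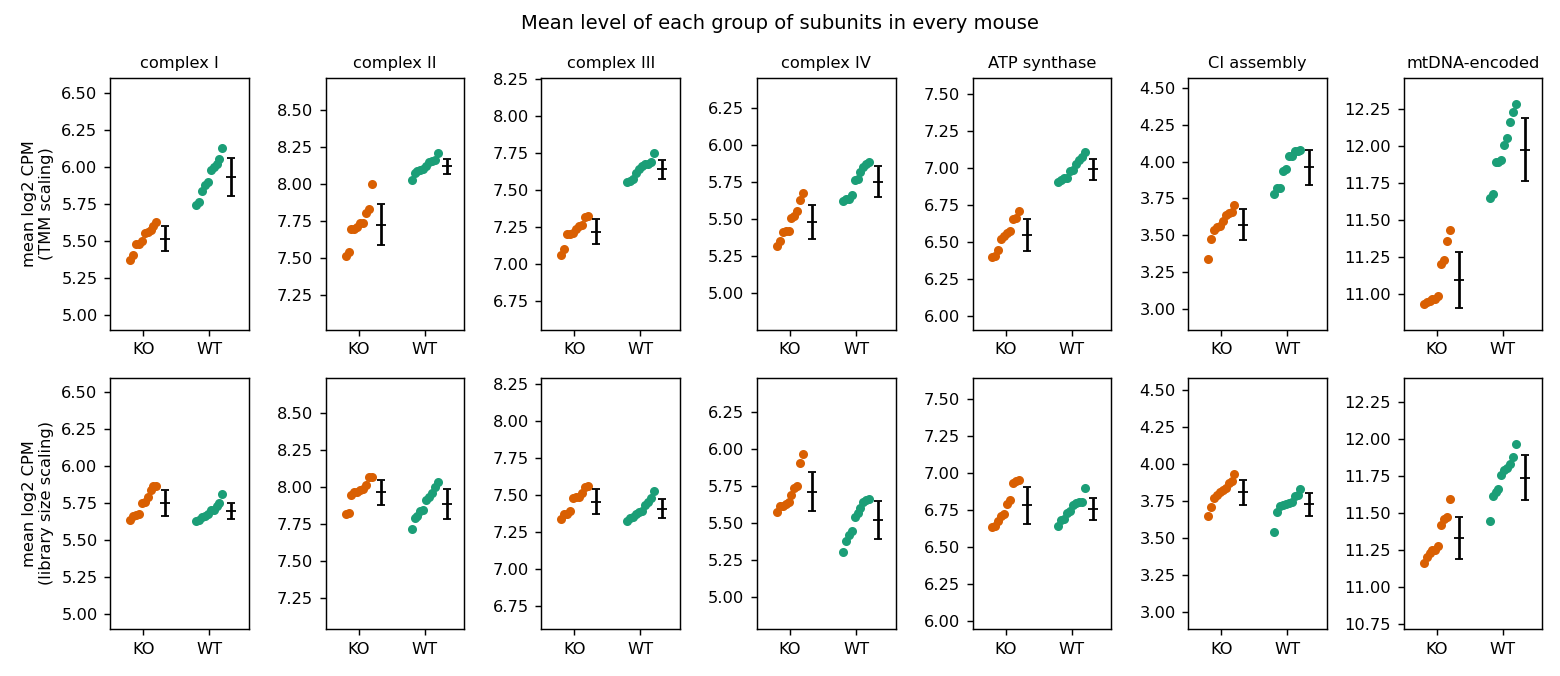
Mean log2 CPM over the tested members of complexes I to IV, ATP synthase, the complex I assembly factors and the genes of mitochondrial DNA in every mouse, with TMM factors (upper row) and library size scaling (lower row); points are mice in order of value, bars mean and SD of 10 mice, and all panels span the same number of log2 units. With TMM factors KO mice lie below WT mice in every panel drawn except complex IV, where they overlap, and with library size scaling all panels overlap.

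Complex IV, the cytochrome c oxidase, was mixed, with 10 of 15 tested members lower, 1 higher and 4 not called with TMM factors (median -0.33). Under library size scaling 7 were higher and 3 lower (median 0.14). Cox7b (mm10 chromosome X, 106015700 to 106022450), which the oxidase needs for its assembly, had 86.8, 101 and 109.6 CPM in KO livers, against 149, 163 and 196 CPM in WT livers (log2 fold change -0.75, SE 0.0613, adjusted p = 1.53e-09). Cox6c had 97.8, 117 and 140.1 CPM in KO livers, against 159, 180.2 and 241 CPM in WT livers (log2 fold change -0.67, SE 0.0786, adjusted p = 2.73e-07). Cox5b, on the matrix side of the enzyme, had 56.3, 65.4 and 77.4 CPM in KO livers, against 80.9, 105 and 119.7 CPM in WT livers (log2 fold change -0.63, SE 0.0726, adjusted p = 2.10e-07). The 3 genes had no overlap between the genotypes and were also lower under library size scaling, Cox7b by the most (-0.27, adjusted p = 1.75e-04), then Cox6c (-0.19) and Cox5b (-0.15).

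Other complex IV members fell less. Cox4i1, the regulatory subunit, had 304, 357 and 390.2 CPM in KO livers, against 433, 501 and 547 CPM in WT livers (log2 fold change -0.48, SE 0.0583, adjusted p = 3.69e-07). Cox6a1, the most abundant complex IV gene per length (631 ± 36.2 RPKM in KO livers and 791 ± 84.4 RPKM in WT livers), had -0.33 with TMM factors and 0.15 under library size scaling, called in opposite directions. The same held for Cox5a (-0.30 and 0.17), Cox8a (-0.30 and 0.17) and Ndufa4 (-0.33 and 0.14). Cox7a2l, which joins complexes III and IV in supercomplexes, had 68.2, 80.1 and 89.9 CPM in KO livers, against 73.2, 80.7 and 93.3 CPM in WT livers and was not called with TMM factors (log2 fold change -0.051, adjusted p = 0.404). Cox7a2 and Cox7c were not called either (-0.10 and -0.36, SE 0.152 and 0.213), and an unnamed opposite-strand gene overlaps 48.9% of the Cox7a2 exons.

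Tissue isoforms of complex IV had low counts in these livers. Cox6b2, known from testis, was the one member higher with TMM factors, at 0.346, 0.751 and 2.86 CPM in KO livers and 0.164, 0.381 and 0.922 CPM in WT livers with overlap (log2 fold change 1.45, SE 0.408, adjusted p = 0.00425), and higher too under library size scaling (1.92). Its counts were highest in KO_414, KO_416 and KO_372 (84, 71 and 52), against 4 to 20 in WT mice. Its partner Cox6b1 had -0.39, and the log2 RPKM ratio of Cox6b2 to Cox6b1 was -7.62 ± 1.04 in KO mice and -9.23 ± 0.76 in WT mice (SD, n = 10 each), with overlap. Cox4i2, an isoform of lung, had 41 counts over the KO mice and 18 over the WT mice and was not tested.

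Of the heart and muscle isoforms, all 3 of Cox8b, Cox6a2 and Cox7a1 were highest in 2 WT libraries that held striated muscle transcripts. WT_389 and WT_441 had 6064 and 1393 counts of skeletal actin (Acta1) and 1518 and 336 of muscle creatine kinase (Ckm), while the other mice had at most 33 and 16. Cox8b had 118 and 30 counts in those WT mice and at most 3 in any other mouse, and Cox6a2 had 243 and 53, against at most 5. Cox7a1, the tested one of the 3, had 0.630, 1.12 and 2.01 CPM in KO livers and 0.673, 1.07 and 4.05 CPM in WT livers and was not called (-0.22, adjusted p = 0.555). It stood at 4.05 and 2.42 CPM in those WT mice and at most 2.01 CPM in any other mouse. Without those 2 WT mice its log2 fold change was 0.35 (adjusted p = 0.193), and the counts of members lower and higher with TMM factors stayed at 78 and 1.

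ATP synthase fell in 15 of 17 tested members with TMM factors (median -0.45), while under library size scaling 3 were higher, 2 lower and 12 not called (median 0.025). The peripheral stalk, which holds the catalytic head still, had every KO mouse below every WT mouse in all 4 genes with TMM factors. Atp5o had 104, 127 and 135 CPM in KO livers, against 169, 191 and 217 CPM in WT livers (log2 fold change -0.60, SE 0.0560, adjusted p = 9.39e-09). Atp5j (mm10 chromosome 16, 84827871 to 84835574; 16.2% of its exon bases overlap Gabpa) had 125, 141 and 154 CPM in KO livers, against 186, 214 and 256 CPM in WT livers (log2 fold change -0.60, SE 0.0585, adjusted p = 1.65e-08). Atp5h had 83.1, 89.8 and 96.3 CPM in KO livers, against 109.6, 122 and 139.6 CPM in WT livers (log2 fold change -0.45, SE 0.0502, adjusted p = 1.27e-07). Atp5o and Atp5j were the ATP synthase members lower under both scalings (-0.13 and -0.13 with library size), whereas Atp5h and Atp5pb (0.026 and 0.068) were not called there.

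In the catalytic head Atp5a1 and Atp5b, the alpha and beta subunits, overlapped between the genotypes. Atp5b, the most abundant member of ATP synthase per length, had 974, 1064 and 1266 CPM in KO livers, against 1009.7, 1265 and 1446 CPM in WT livers (log2 fold change -0.23, SE 0.0701, adjusted p = 0.00680), and 0.23 under library size scaling (adjusted p = 0.0138). Of the central stalk, Atp5c1 had 185, 199 and 219 CPM in KO livers, against 249.2, 269 and 292 CPM in WT livers without overlap (log2 fold change -0.42, SE 0.0472, adjusted p = 1.16e-07). Atp5e had -0.64, and Atp5d -0.13 (adjusted p = 0.0496), which turned to 0.34 under library size scaling. An unnamed opposite-strand gene overlaps 50.7% of the Atp5d exons.

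The c ring, the proton-driven rotor, is made of identical c subunits that Atp5g1, Atp5g2 and Atp5g3 all encode. Atp5g3 supplied most of this RNA, at 462 ± 32.9 RPKM in KO livers and 627 ± 23.1 RPKM in WT livers, with Atp5g1 at 28.1 ± 6.10 RPKM in KO livers and 40.0 ± 4.08 RPKM in WT livers and Atp5g2 at 10.3 ± 2.89 RPKM in KO livers and 12.8 ± 2.06 RPKM in WT livers (mean ± SD, n = 10 each). Atp5g3 and Atp5g1 were lower with TMM factors (-0.44 and -0.51) and Atp5g2 was not called (-0.31, adjusted p = 0.0620), though it was without KO_416 (adjusted p = 0.0251) or without WT_390 (adjusted p = 0.0308). The log2 RPKM ratio of Atp5g3 to Atp5g1 was 4.07 ± 0.29 in KO mice and 3.98 ± 0.14 in WT mice, with overlap. Of the small membrane subunits Atp5l, Atp5k and Atp5md were lower (-0.66, -0.65 and -0.55). Atp5mpl was not called, at 77.5, 89.8 and 105 CPM in KO livers and 76.0, 84.0 and 94.2 CPM in WT livers (log2 fold change 0.066, adjusted p = 0.320). It had the highest log2 fold change of ATP synthase under library size scaling (0.54), where the median of all genes tested was 0.44.

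Across the complexes, 12 members were lower under both scalings (6.71% of all genes tested were): Ndufs3, Ndufv3, Ndufb3, Ndufb9, Ndufb10, Ndufb11, Ndufaf1, Cox5b, Cox6c, Cox7b, Atp5j and Atp5o. A further 18 were lower with TMM factors and higher with library size (8.37% of all genes tested), 48 were lower with TMM factors and not called with library size (15.9%), and 8 were not called with TMM factors and higher with library size (31.9%). The remaining 5 are Cox6b2, higher under both (28.2% of all genes tested were), and 4 members called under neither (8.97%). The calls are nested. Over all genes tested, each of the 917 lower with library size was lower with TMM factors too. Each of the 3853 higher with TMM factors was higher with library size too. A call shared by both scalings is therefore not a second, separate result. Leaving out the mice WT_389 and WT_441 kept 10 of the 12 lower under library size scaling, all but Ndufb10 (adjusted p = 0.0563) and Atp5o (adjusted p = 0.117). Leaving out KO_391, whose multi-mapping share of 8.46% lay above the 2.09% to 4.02% of the other KO mice, also kept 10 of the 12, all but Cox5b (adjusted p = 0.0552) and Atp5o (adjusted p = 0.0576). The 3 members on chromosome X, Cox7b, Ndufb11 and Ndufa1, had a median log2 fold change of -0.71 with TMM factors.

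**Figure D4:**
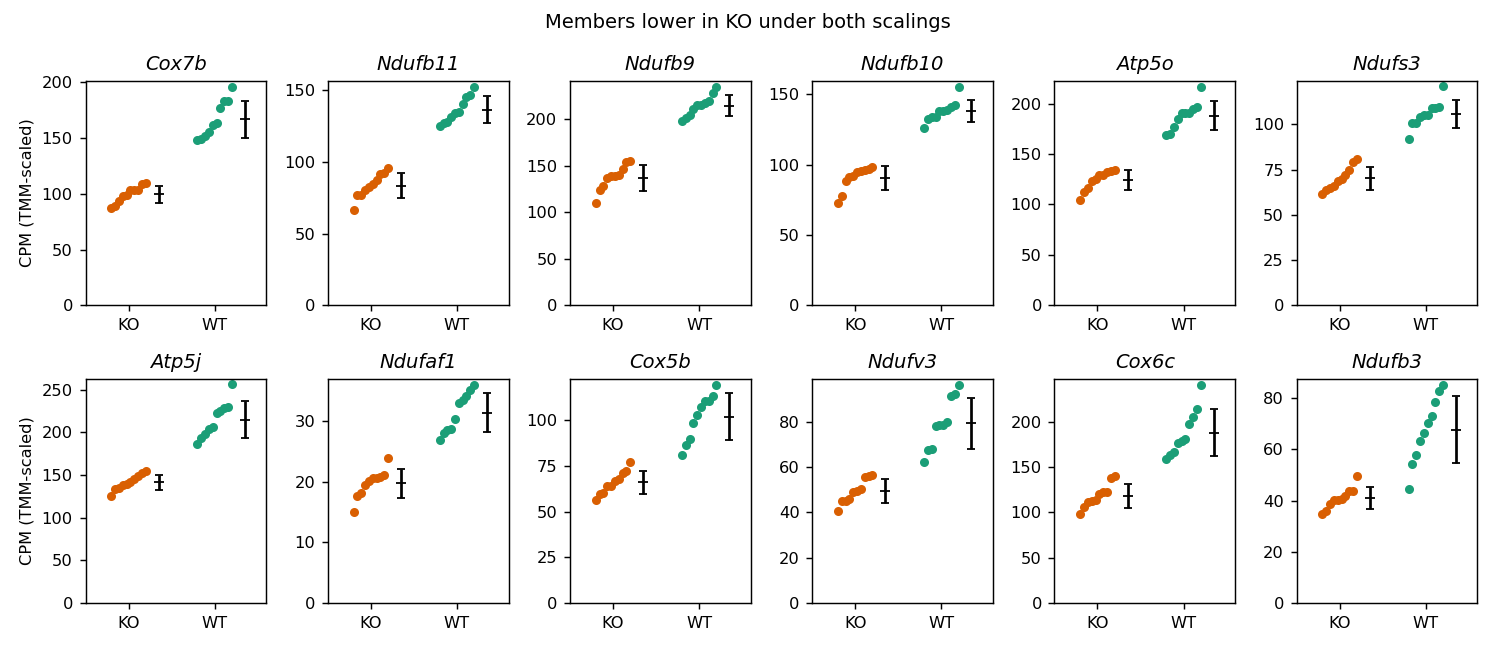
TMM-scaled CPM of the 12 members lower in KO under both scalings; points are mice in order of value, bars mean and SD of 10 mice, and each axis starts at 0. In 11 of the 12 panels every KO mouse lies below every WT mouse, the exception being Ndufb3. These 12 are all the members lower with library size scaling, since each was lower with TMM factors too.

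Differences between complexes within a library, which a common factor cannot change, were small. The mean log2 CPM of complex II over that of complex I was 2.21 ± 0.12 in KO mice and 2.19 ± 0.14 in WT mice (SD, n = 10 each). For complex III the value was 1.70 ± 0.019 in KO mice and 1.71 ± 0.081 in WT mice, and for ATP synthase 1.03 ± 0.046 in KO mice and 1.06 ± 0.080 in WT mice. The largest difference was that of complex IV, at -0.033 ± 0.075 in KO mice and -0.18 ± 0.13 in WT mice, whose mean includes Cox6b2. In all of these the genotypes overlapped, and no test was made of them.

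The subunits encoded by mitochondrial DNA also fell with TMM factors, to a lower median than the nuclear members, and the difference was not tested. All 13 protein genes were lower with TMM factors, with a median log2 fold change of -0.87, and 11 of 13 were lower under library size scaling (median -0.40), all but ND1 and COX1. Their share of assigned fragments was 6.27% to 8.77% in KO mice (mean 7.27% ± 0.84, SD, n = 10) and 7.29% to 10.7% in WT mice (8.97% ± 0.95, n = 10). Per 100 mitochondrially encoded fragments there were 13.1 to 19.0 nuclear member fragments in KO mice and 10.5 to 16.1 in WT mice, a ratio that needs no scaling and that overlapped. The mean log2 CPM of the 13 genes over that of complex I was 5.58 ± 0.19 in KO mice and 6.04 ± 0.13 in WT mice, again with overlap (5.34 to 5.93 in KO mice and 5.81 to 6.21 in WT mice).

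ND3, a complex I subunit, had 283, 409.2 and 526 CPM in KO livers, against 751, 1036 and 1310.3 CPM in WT livers (log2 fold change -1.34, SE 0.118, adjusted p = 4.02e-09). CYTB, the cytochrome b of complex III, had 4181, 5116 and 6955 CPM in KO livers, against 9609, 11981 and 14626 CPM in WT livers (log2 fold change -1.16, SE 0.107, adjusted p = 7.94e-09). Both had every KO mouse below every WT mouse and stayed lower under library size scaling (-0.86 and -0.69). ATP8, of the ATP synthase membrane part, had -1.02, and its level of 18.4, 19.5 and 24.7 CPM in KO livers and 31.4, 40.6 and 48.6 CPM in WT livers comes from a gene of which 21.1% overlaps ATP6, so that shared fragments may be missing. The smallest changes were those of ND1 (-0.47) and COX1 (-0.58), with 0.0089 and -0.11 under library size scaling. All but ND6, which lies on the other strand, are cut from a shared long transcript, so their fold changes are not independent of each other.

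**Figure D5:**
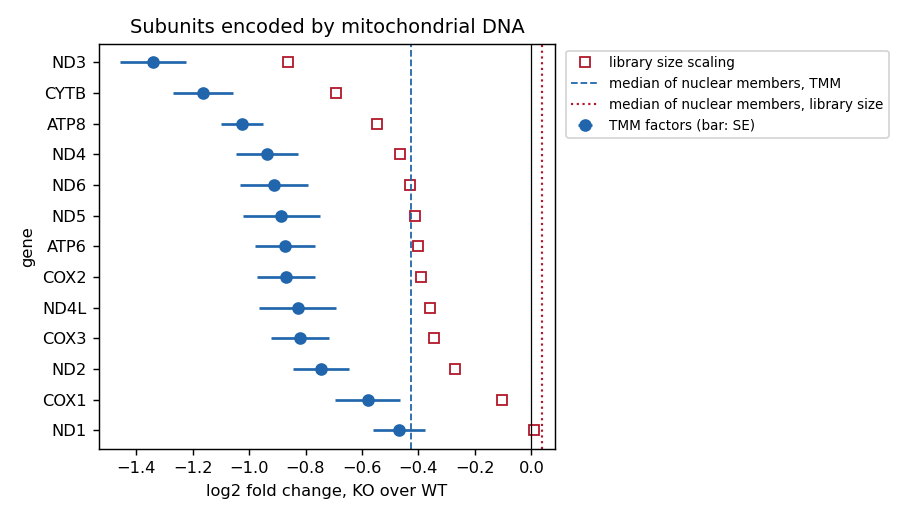
Log2 fold change of KO over WT for the 13 protein genes of mitochondrial DNA with TMM factors (filled circles, bar SE) and library size scaling (open squares); vertical lines mark the medians of the tested nuclear members, -0.43 and 0.037. All filled circles lie left of the nuclear median for TMM factors, and all squares lie left of the nuclear median for library size.

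Other genes of the pathway were counted from lists, here and in the paragraphs on other pathway genes that follow. Over all genes tested 31% were lower and 28.2% higher with TMM factors. With library size 6.71% were lower and 68.4% higher, and several list counts lie near these shares. Atpif1, the inhibitor protein that stops ATP synthase from running backwards, rose under both scalings, at 18.9, 30.3 and 39.1 CPM in KO livers, against 8.66, 11.9 and 14.8 CPM in WT livers (log2 fold change 1.38, SE 0.113, adjusted p = 1.47e-09). Every KO mouse lay above every WT mouse for this gene. It was the 1 higher of 4 tested genes listed as subunits outside the symbol rule with TMM factors. Higd1a (-0.50) and Higd2a (-0.46) were lower and Dmac2l was not called, while with library size 2 of the 4 were higher and 0 lower. Of 42 tested assembly factors outside the Ndufaf group 26 were lower and 4 higher with TMM factors, and 4 lower and 25 higher with library size. Dmac2, which helps to build the membrane arm of complex I, had -0.95, and Cox11, which delivers copper to complex IV, -0.78, and both were lower under both scalings (-0.49 and -0.32). The rises with TMM factors were those of Cox19 (0.72), Coa5 (0.47), Coa3 (0.27) and Cox15 (0.16). Cox20 (-0.54), Cox10 (-0.45) and Surf1 (-0.30), among others of the list, were lower.

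Enzymes that feed electrons to ubiquinone by other routes had 5 of 9 lower and 1 higher with TMM factors, and 2 lower and 4 higher with library size. Prodh, the proline dehydrogenase, had 49.9, 57.4 and 130.2 CPM in KO livers, against 149, 238 and 315 CPM in WT livers (log2 fold change -1.75, SE 0.189, adjusted p = 1.40e-07), and Prodh2, the hydroxyproline dehydrogenase, 85.8, 141 and 172 CPM in KO livers, against 248.5, 282 and 334 CPM in WT livers (log2 fold change -1.07, SE 0.0956, adjusted p = 4.80e-09). Both were lower under library size scaling too (-1.28 and -0.61). Of 13 coenzyme Q synthesis genes 5 were lower and 2 higher, Coq6 with 0.38 and Coq8b with 0.65; under library size scaling 0 were lower and 8 higher.

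Of 14 citric acid cycle genes 7 were lower and 4 higher with TMM factors (31% and 28.2% of all genes tested). With library size 0 were lower and 12 higher (6.71% and 68.4% of all genes tested). Citrate synthase (Cs) had 145.9, 218 and 265 CPM in KO livers, against 104, 122 and 145.5 CPM in WT livers (log2 fold change 0.78, SE 0.0905, adjusted p = 2.16e-07), and Idh2, the NADP-dependent isocitrate dehydrogenase of mitochondria, 132, 154 and 168 CPM in KO livers, against 75.7, 82.1 and 128 CPM in WT livers (log2 fold change 0.82, SE 0.0765, adjusted p = 9.96e-09). In both genes every KO mouse lay above every WT mouse, in Cs by a narrow margin. Fh1, the fumarase, had -0.65 and was lower with TMM factors. Of 20 genes for porins, import channels, cristae, chaperones and fusion, taken as measures of mitochondrial content, 10 were lower and 1 higher with TMM factors (median -0.13), and 0 lower and 16 higher with library size.

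Of 21 tested genes for mitochondrial biogenesis and for the mitochondrial genome 11 were lower and 2 higher with TMM factors (median -0.24), and 0 lower and 12 higher with library size. Among the factors whose letters were sought in the promoters, Gabpa had -0.36 and Esrra, the estrogen-related receptor alpha, -0.42, both lower with TMM factors and not called with library size (0.11 and 0.050). Nrf1 and Yy1 were not called with TMM factors (-0.033 and -0.065) and were higher with library size (0.44 and 0.40). The coactivator Ppargc1a was called under neither (-0.45, SE 0.208, adjusted p = 0.0676). Polg2, the accessory subunit of the mitochondrial DNA polymerase, and Tfam, which packages mitochondrial DNA, were lower with TMM factors (-0.63 and -0.28), and Tfam was higher with library size (0.19).

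In the authors' deposited table of the same libraries, tested with ROTS, 90 of the 97 members are listed, of which 56 have a false discovery rate under 0.05 with a negative log2 fold change and 0 with a positive one. The median log2 fold change of the listed members in the authors' deposited table is -0.41, and 18.9% of its 12820 genes are lower at that threshold. Among 489 cellular component terms in the authors' deposited table of gene ontology terms, respiratory chain complex has rank 3 (72 annotated genes, FDR 4.39e-07). In the same authors' deposited table, mitochondrial respiratory chain complex I has an FDR of 5.00e-04 (48 genes) and the mitochondrial ATP synthase complex one of 0.0065 (19 genes). The biological process oxidative phosphorylation (88 genes) has an FDR of 0.147 in the authors' deposited table.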

How the data were processed

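The authors deposited whole-number fragment counts per gene, a normalized signal that divides the counts by 1 factor per mouse, RPKM values, and tables of their own tests with log2 fold changes, p-values and false discovery rates. Per the names of the deposited files, alignment and counting used Rsubread with RefSeq annotation of mm10, whereas DESeq2 and the aligner HISAT2 (2.0.5) are listed in the submitters' processing notes. No source used here states the strand setting or whether poly(A) RNA was selected. Every sample column was matched to a mouse, and 20 columns of fragment statistics were not used.

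The counts were tested over all 13670 genes that passed filterByExpr of edgeR 4.0.16 (R 4.3.3; minimum count 10, minimum total count 15), with TMM factors, robust quasi-likelihood F tests and Benjamini-Hochberg adjustment at 0.05. The SE belongs to the fitted log2 value. CPM values are TMM-scaled, log2 CPM has a prior count of 2, and levels between genes are compared in RPKM, with a pseudocount of 0.01 in ratios. The genes not tested held 0.0858% of fragments. The test was checked on simulated data in which few genes changed, up and down alike. That check cannot speak to the choice of scaling. Alternatives were library size scaling, DESeq2 size factors and the DESeq2 1.42.0 test, upper-quartile factors, no filter, a stricter filter (1 CPM or more in 10 mice or more), limma 3.58.1 with voom weights or on RPKM with pseudocounts of 0.1 and 1, and leaving out mice.

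The members and lists were chosen with earlier results of these data known. Named members were, per complex, up to 4 with the smallest adjusted p, the most abundant per length, those with the lowest and highest log2 fold change, those called under both scalings, isoform pairs and those not tested; others were named after their values were seen. Of the other lists, up to 2 members with the smallest adjusted p were named, and further ones after their values were seen. Coordinates are those of the deposited mm10 annotation. The values of 1 member are not reported here.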

Additional observations from a re-analysis of the deposited data

Results flagged for a closer look

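Of 114 groups of 10 mice examined for a mouse that stands apart from the rest of its genotype, 2 were flagged, where chance flags about 1 in 20 groups. Ndufa10 in KO_416 was at 139 CPM, the lowest of the KO mice, and without that mouse its log2 fold change was 0.036 (adjusted p = 0.566). Atp5b in KO_391 was at 1266 CPM, the highest of the KO mice, and leaving out 1 mouse at a time kept its log2 fold change between -0.27 and -0.19.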

How the results depend on the processing

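Library size scaling was the setting that moved most results. With it the counts were 27 higher and 12 lower, 0 members had all KO below all WT and 3 all KO above all WT, and the complex medians turned to 0.033 (complex I), 0.11 (II), 0.0081 (III), 0.14 (IV), 0.025 (ATP synthase) and 0.061 (assembly factors). With library size scaling it was 31 higher and 10 lower without WT_389 and WT_441, and 30 and 11 without KO_391, both added after seeing the data. Of the 91 tested members 52 were negative with TMM factors and positive with library size scaling; among those named by rule they were Ndufa10 (0.45), Sdhc (0.11), Sdha (0.23), Cyc1 (0.0021), Uqcrc1 (0.057), Uqcr10 (0.22), Cox6a1 (0.15), Atp5c1 (0.046), Atp5h (0.026), Atp5b (0.23), Ndufaf8 (0.16), Ndufa9 (0.12), Ndufc2 (0.15), Cox5a (0.17), Ndufa6 (0.13), Ndufa4 (0.14), Cycs (0.062), Cox6b1 (0.085), Cox7a1 (0.24), Cox7a2 (0.37), Cox8a (0.17), Atp5g2 (0.16) and Atp5g3 (0.025). The stricter filter left 0 members higher, since it removed Cox6b2. Without a filter the complex II median was -0.47, Sdhd then entering it, and with members of a mean log2 CPM of at least 4 alone that of the assembly factors was -0.56, with fewer genes. Leaving out 1 mouse at a time gave 75 to 79 members lower, 1 higher and 44 to 48 without overlap. It moved members near 0 across it: Ndufa10 spanned -0.041 to 0.036, Ndufaf7 -0.012 to 0.059 and Cox7a1 -0.30 to 0.12, none called. Cox7a1 was 0.077 with limma-voom and 0.35 without WT_389 and WT_441, and the causes were not tested. DESeq2 and upper-quartile factors, the DESeq2 test and limma on RPKM reversed none of the results they were run on. No paired analysis was possible because the KO and WT mice share no numbers and the labels give no litter or batch. Low counts limit Sdhd, Uqcr11, Ndufa11b, Cox4i2, Cox6a2 and Cox8b.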
